A study of Mus musculus with 32 samples.

Results

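Keratin 8 (Krt8) and keratin 18 (Krt18), the keratin pair of simple epithelia, were followed in single mouse eggs and single 2-cell embryos labelled WT or Trp53 knockout. They are 2 of the 54532 genes of the table, taken by symbol. They were chosen by measured values, because Krt18 was lower in early embryos labelled MZ-KO and because its difference between genotypes had changed by the late 2-cell stage. The genotype differences of these genes at the early and late 2-cell stages are therefore given as a description, without a test, and so are the stage differences of Krt18 that involve early embryos.

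Keratins are intermediate filament proteins. A filament is built from pairs of one acidic type I and one basic type II chain, and keratin 8 (type II) pairs with keratin 18 (type I). Either chain without its partner is degraded. In the mouse they are the first keratins known to form filaments in the embryo, where they mark the trophectoderm, the outer epithelium of the blastocyst that forms the placenta. Trp53 is the gene of the stress-responsive transcription factor p53.

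The 32 libraries came from 3 eggs labelled Trp53 KO and 3 WT eggs, 6 MZ-KO and 8 WT early 2-cell embryos, and 6 late 2-cell embryos labelled MZ-KO and 6 WT late ones. The KO mice lacked exons 2 to 10 of Trp53, deleted from a floxed allele with Cre under the germ-cell Ddx4 promoter. The WT mice carried the floxed allele undeleted, on a mixed background. MZ-KO embryos lack the gene from both parents, since KO females were mated with KO males. With time counted from the hCG injection that triggers ovulation, early embryos were taken at 28 to 32 hours and late ones at 48 hours, with culture in KSOM medium. A single egg or embryo was lysed per 5 uL, its poly(A) RNA was copied with the SMART-seq v4 kit through 15 PCR cycles, and the cDNA was cut with Tn5 transposase. The design text gives 6 replicates for the early stage, where WT has 8. How many females contributed is not given, so the p-values measure the spread between single eggs or embryos, which may share a mother.

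The depth behind the values was 7213094 to 27593664 reads per library (median 18259375). Trp53 itself averaged 0.770 ± 0.326 FPKM in MZ-KO early embryos and 6.05 ± 2.64 FPKM in WT early embryos (SD, n = 6 and 8). It did not separate the other groups, with 8.19 ± 1.75 FPKM in eggs labelled KO and 7.86 ± 2.13 FPKM in WT eggs (n = 3 each). In late embryos labelled MZ-KO it averaged 2.82 ± 1.38 FPKM, against 3.24 ± 2.31 FPKM in WT late embryos (n = 6 each). The Trp53 values thus go against the KO label in eggs and late embryos, and these libraries are named by their labels only. FPKM counts reads over the whole gene span, so reads from the undeleted ends of Trp53 enter its value. The summed level of 11 oocyte markers was lower at each later stage, with 3240 to 4790 FPKM over both egg groups' libraries, 883 to 1580 FPKM over the early and 455 to 726 FPKM over the late ones. WT early library 3 stood apart, with a median Spearman correlation of 0.808 with its group and the highest sum of the 16 markers of 2-cell embryos (387 FPKM). It was also the WT early library with the highest Krt8 and Krt18, and results that rest on it are given with and without it.

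In mm10 coordinates with GENCODE annotation, Krt8 (ENSMUSG00000049382) lies on the minus strand at chr15:101996698-102004482, and Krt18 (ENSMUSG00000023043) on the plus strand at chr15:102028180-102032027. They sit head to head with 23697 bp between them, at the end of the type II keratin cluster. Krt8 has 1958 exonic bases in a span of 7785 bp, and Krt18 has 1437 in 3848 bp. FPKM here divides by the span, so levels of different genes are set side by side only after rescaling to exon length. The first 271 bp of Krt8 overlap the antisense lincRNA Gm36026, whose own count reached at most 9 reads in any library. The kit does not mark strand, so reads in that overlap cannot be told apart.

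Krt8 also has a near copy elsewhere, and this limits how its low counts can be read. The processed pseudogene Krt8-ps, at chr7:23357125-23358069 on the plus strand, is 945 bases long and matches the Krt8 transcript at 98.6% of 941 aligned positions, with 13 differences and an identical run of 299 bases. Read pairs inside such a run fit both loci. The stretch below is where the copies differ most closely together; it is bases 1060 to 1119 of the Krt8 transcript, within its coding part, and bases 817 to 876 of Krt8-ps, both from the GENCODE transcripts, 5′ to 3′, with the 4 differing bases in capitals.
Krt8: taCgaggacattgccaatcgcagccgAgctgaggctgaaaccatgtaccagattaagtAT
Krt8-ps: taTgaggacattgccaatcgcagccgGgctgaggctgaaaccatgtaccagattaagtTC
The closest annotated copies of Krt18 differ more, with 90.1% identity for Gm5200 and 86.4% for Gm17847 and no identical run over 54 bases.

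The windows from 250 bases before to 50 bases after the RefSeq starts (GRCm38.p6) had a GC content of 58.0% for Krt8 and 61.3% for Krt18, against a median of 52.7% over 32851 promoters. The RefSeq start of Krt8 lies inside the GENCODE transcript, downstream of its start. On either strand the Krt8 window holds a TATA box (TATAAA), which 13.6% of the promoters hold. Both readings overlap there, beginning 3 and 1 bases before the RefSeq start, so they lie on the start itself. The Krt18 window has no match. Neither window matched CCAAT, the GC box GGGCGG, the AP-1 site TGANTCA, the E box CACGTG, the Dux site or the p53 half-site on either strand. Of all promoters, 37.4%, 35.7%, 7.81%, 7.15%, 0.0335% and 8.36% hold them, in that order. These letters describe the windows only.

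Krt18 was at or near 0 in eggs, present in every WT early embryo, sparse in MZ-KO early embryos, and then present in every late embryo labelled MZ-KO but in only 3 of 6 WT late embryos. In eggs labelled KO, Krt18 was listed at 0.308 FPKM in 1 library and at 0 in the other two, and in the 3 WT eggs it was listed at 0. Those WT eggs held no read in 57958427, where 3 reads over the group are a level of 0.0135 FPKM.

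In MZ-KO early embryos Krt18 had 0.395, 0, 0, 0.207, 0.607 and 0 FPKM, in library order. In WT early embryos it ranged up to 2.485 FPKM, with a lowest value of 0.306 and a median of 1.13 over 8 libraries. All WT early libraries had Krt18 reads, and the groups overlapped, since 4 of the 6 MZ-KO early libraries lay below every WT early one and the other two lay above the lowest. The means were 0.202 ± 0.254 FPKM in MZ-KO early embryos and 1.26 ± 0.630 FPKM in WT early embryos (SD, n = 6 and 8), a 6.26-fold lower mean in MZ-KO early embryos. On the log2(FPKM + 1) scale, which understates the change of low genes, the difference was −0.89. Behind these means stood 84 reads over the MZ-KO early libraries and 666 over the WT early ones. Without WT early library 3 the WT early mean was 1.09 ± 0.422 FPKM. Over all genes, 3.28% of the 7675 tested were called and 0.704% were called lower in MZ-KO early embryos (limma, Benjamini-Hochberg adjusted p below 0.05), and nothing is read from this for Krt18, since this contrast chose it. Krt18 just passed the filter of that fit, with 6 libraries at FPKM 1 or more where 6 were needed, all of them WT.

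In late embryos labelled MZ-KO, Krt18 had 1.114, 0.143, 4.612, 0.226, 2.279 and 0.675 FPKM. In WT late embryos it had 0, 0.108, 0, 1.226, 0 and 1.08 FPKM. The ranges overlapped, with 2 of the MZ-KO-labelled libraries above every WT late library. Means were 1.51 ± 1.71 FPKM in late embryos labelled MZ-KO and 0.402 ± 0.585 FPKM in WT late embryos (SD, n = 6 each), a ratio of 3.75 and a difference of 0.69 on the log2(FPKM + 1) scale. Late library 3 labelled MZ-KO carried 388 of that group's 764 reads, and without it the mean was 0.887 ± 0.870 FPKM. The genotype difference thus had opposite signs at the 2 stages, and the late difference minus the early one was 1.58. Leaving out single libraries gave 1.3 to 1.76. At the late stage 31.9% of 8772 genes were called, 18.5% higher in embryos labelled MZ-KO and 13.4% lower, and Krt18 was not among those tested, with 5 libraries at FPKM 1 where 6 were needed. With median-ratio scaling 1097 genes were higher and 1628 lower, against 1624 and 1178 as deposited.

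**Figure D1:**
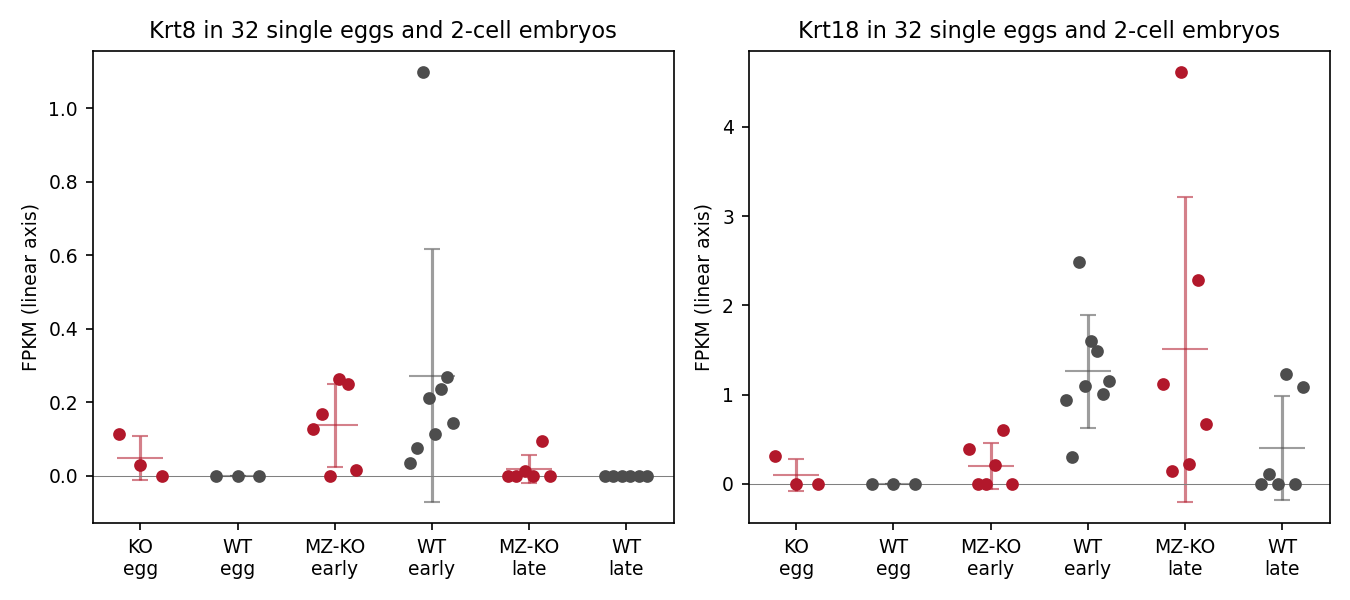
FPKM (linear axes, different in the 2 panels) of Krt8 and Krt18 in each of 32 libraries by group; points are libraries, lines are mean ± SD, MZ-KO or KO is red and WT is grey. Krt18 is present in all 8 WT early libraries and all 6 late libraries labelled MZ-KO, while Krt8 is highest in the early groups and is listed at 0 in every WT egg and WT late library.

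Krt8 followed another course, with reads mainly in early embryos of both genotypes. In eggs labelled KO it was listed at 0.114, 0.028 and 0 FPKM, and in the 3 WT eggs at 0. In MZ-KO early embryos it had 0.126, 0.167, 0, 0.263, 0.25 and 0.015 FPKM, and in WT early embryos 0.033 to 1.098 FPKM with a median of 0.176. The early groups overlapped almost fully, except that WT early library 3 was far above the rest. The means were 0.137 ± 0.113 FPKM in MZ-KO early embryos and 0.272 ± 0.343 FPKM in WT early embryos (SD, n = 6 and 8). Without WT early library 3 the WT early mean was 0.154 ± 0.0872 FPKM. The differences of MZ-KO from WT were −0.13 at the early and 0.02 at the late stage in log2(FPKM + 1), and Krt8 passed the filter of no comparison.

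In late embryos labelled MZ-KO, 2 libraries had Krt8 reads, 2 reads in library 3 (0.012 FPKM) and 20 in library 5 (0.093 FPKM), and the other libraries were listed at 0. All 6 WT late embryos were listed at 0, with no read in 118667019, where 3 reads over the group are a level of 0.00325 FPKM. Library 5 labelled MZ-KO was also the deepest of all libraries, with 27593664 reads. Without it the Krt8 mean of late embryos labelled MZ-KO was 0.00240 FPKM, against 0.0175 FPKM with it.

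By mean FPKM, Krt18 ranked in the order late embryos labelled MZ-KO (1.51), WT early (1.26), WT late (0.402), MZ-KO early (0.202), eggs labelled KO (0.103) and WT eggs (0). Each neighbouring pair in that order differed by less than the larger of its SDs, apart from WT early and WT late. For Krt8 the order was WT early (0.272), MZ-KO early (0.137), eggs labelled KO (0.0473), late embryos labelled MZ-KO (0.0175), and WT late and WT eggs (0 each), and every neighbouring pair differed by no more than the larger of its SDs.

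Stage differences within a genotype are not the contrast that chose the genes, but they reuse its values. Those of Krt18 with early embryos are described only. FPKM is a share of a library's reads, so more of a transcript and less of the other RNA cannot be told apart. In WT, Krt18 was higher in early embryos than in eggs or late embryos. WT early embryos averaged 93.4-fold the level of 3 reads over the WT eggs. The log2(FPKM + 1) difference of WT early embryos from WT eggs was 1.13, and 8 of 8 WT early libraries lay above every WT egg. In that comparison 30.4% of the 8619 genes tested were called higher and 20.9% lower by limma. With median-ratio scaling 2261 genes were higher and 2428 lower, against 2623 and 1800 with FPKM as deposited, and the Krt18 difference was 1.07. Krt18 passed the filter there through WT early libraries alone.

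WT late embryos differed from WT early embryos by −0.74 in Krt18, a 3.14-fold lower mean, with 4 of 6 WT late libraries below every WT early one. Krt18 passed the filter here with 8 libraries where 6 were needed, and 6 of the 8 were WT early. Of all 9319 genes tested, 38.4% were called lower. Between WT late embryos and WT eggs the Krt18 difference was 0.39 and did not pass (exact permutation p = 0.476, 95% interval −0.31 to 1.10), as 3 of the 6 WT late libraries were listed at 0. There 79.1% of all 10423 genes were called. The WT late values also took part in the choice of Krt18, so nothing is read from that p-value.

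Under the KO labels the second step of Krt18 had the other sign. MZ-KO early embryos differed from eggs labelled KO by 0.11 in log2(FPKM + 1), in a comparison where 49.2% of 8305 genes were called. Late embryos labelled MZ-KO then differed from MZ-KO early embryos by 0.85, a 7.48-fold higher mean, with 4 of 6 above every MZ-KO early library, where 48.3% of all 8944 genes were called higher. The gene failed the filter of that fit. Without late library 3 labelled MZ-KO, the difference was 0.57. Late embryos labelled MZ-KO, whose values also took part in the choice, differed from eggs labelled KO by 0.96 (95% interval −0.09 to 2.00), which missed the threshold with a limma adjusted p of 0.0858 and an exact permutation p of 0.0714. Krt18 passed the filter of that fit through 3 late libraries alone, and 50.6% of 10816 genes were called higher there. Since late values entered both the choice and the filter, these p-values cannot decide on a rise, and nothing is read from them.

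Krt8 failed every filter and was tested by exact permutation, with limma fits without a filter beside it. It was higher in WT early embryos than in WT eggs by 0.31 in log2(FPKM + 1), with 8 of 8 libraries above (exact permutation p = 0.0121). The WT early mean was 40.9-fold the level of 3 reads over the WT eggs. WT late embryos lay below WT early ones by 0.31, with 6 of 6 WT late libraries below every WT early one. The exact permutation p of 0.000666 is the smallest that 6 against 8 libraries allow. The WT early mean was 83.7-fold the level of 3 reads over the WT late libraries. This fold, the p-value and the 6 of 6 leave out the pseudogene Krt8-ps, which held 75 reads in WT early and 47 in WT late embryos. WT late library 2 held 29 Krt8-ps reads. WT early libraries 1 and 2 held 4 and 8 reads of Krt8, and 2 and 0 of Krt8-ps. The complete separation therefore holds only for reads assigned to Krt8 itself. In fits without the filter, limma adjusted p-values for these WT steps of Krt8 were 0.330 and 0.0643. Without WT early library 3 both differences were 0.20 in size, and the folds over 3 reads were 23.2 for WT eggs and 47.4 for WT late embryos.

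Late embryos labelled MZ-KO were lower in Krt8 than MZ-KO early embryos by 0.15 (exact permutation p = 0.0281; limma adjusted p without filter 0.0625), and the groups overlapped. MZ-KO early embryos differed from eggs labelled KO by 0.11 (exact permutation p = 0.286), and late embryos labelled MZ-KO from those eggs by −0.04 (exact permutation p = 0.310). Between eggs labelled KO and WT eggs neither gene could be separated, with 0.07 for Krt8 and 0.13 for Krt18 (exact permutation p = 0.400 and 1, where 3 against 3 libraries cannot go below 0.1). In that comparison 0.333% of 6607 genes were called. The permutation p-values, of 6 comparisons for Krt8 and 3 for Krt18, are not adjusted for their number.

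**Figure D2:**
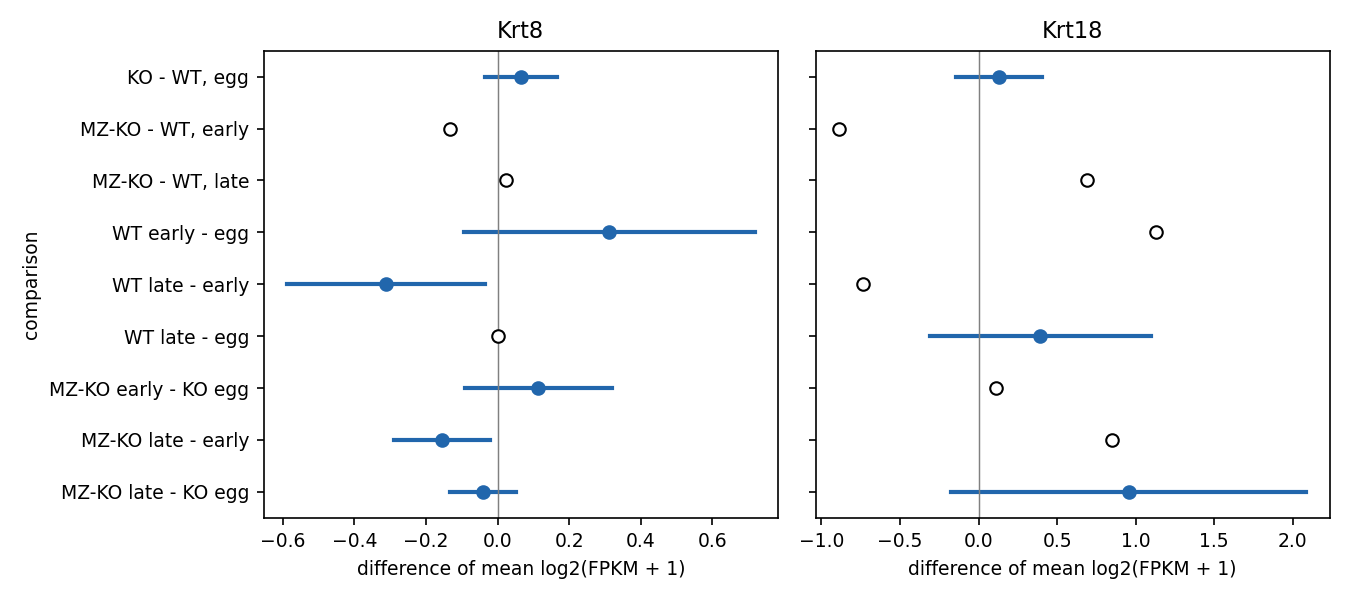
Differences of mean log2(FPKM + 1) for Krt8 and Krt18 in 9 comparisons, the group named first minus the second, on horizontal scales that differ. Filled points have 95% limma intervals from the fit without a filter; open points have none, because the choice of genes used that contrast or, for Krt18, the early values in it, or because both groups were at 0. Krt18 lies above 0 for WT early minus egg and below 0 for WT late minus early, and the step between MZ-KO early and late embryos lies on the other side of 0.

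The pair was seldom balanced. Rescaled to exon length, Krt18 averaged 3.38 FPKM and Krt8 1.08 FPKM in WT early embryos, a ratio of 3.12, and Krt18 exceeded Krt8 in 8 of 8 of them. WT early library 3 held 168 of the 310 Krt8 reads of that group. Without it the means before rescaling were 1.09 FPKM for Krt18 and 0.154 FPKM for Krt8, which makes the ratio larger. In late embryos labelled MZ-KO, Krt18 averaged 4.04 and Krt8 0.0697 FPKM per exon length, a ratio of 58.0, with Krt18 above Krt8 in 6 of 6. The Krt8 mean rests on 22 reads, 20 of them in library 5, and without that library it was 0.00954 and the ratio 380. In 4 of those embryos Krt18 had reads and Krt8 had none. In MZ-KO early embryos the means were 0.540 for Krt18 and 0.544 for Krt8, Krt8 being the higher in 3 libraries and Krt18 in 2, with both at 0 in the remaining library. In WT late embryos 3 libraries had Krt18 alone and 3 had neither.

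No correlation of Krt8 with Krt18 across the libraries of a group passed its test. Pearson's r was 0.647 in MZ-KO early embryos (exact permutation p = 0.175, adjusted 0.263, n = 6) and Spearman's rho 0.577 (exact p = 0.250). In WT early embryos r was 0.730 (exact permutation p = 0.0752, adjusted 0.226, n = 8) and rho 0.571 (exact p = 0.151). Without the 2 libraries farthest from the median of Krt18, library 3 among them, r there was 0.123. Leaving out the 2 farthest in MZ-KO early embryos gave an r of 0.786. In late embryos labelled MZ-KO r was 0.461 (exact permutation p = 0.367, n = 6) and rho 0.777 (exact p = 0.133). WT late embryos had no Krt8 value above 0, which leaves 3 relations in the adjustment.

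Krt8-ps followed Krt8 in part. In MZ-KO early embryos it had 12, 0, 0, 14, 10 and 4 reads, in library order, where Krt8 had 22, 20, 0, 36, 30 and 2. In WT early library 3, the highest for Krt8 with 168 reads, Krt8-ps had 24. WT late embryos parted from this, with 13, 29 and 5 Krt8-ps reads in libraries 1, 2 and 5 where Krt8 had none. Reads were therefore assigned to the pseudogene in late embryos without any at the parent gene. Adding the pseudogene's reads to Krt8 left the sign of its early minus egg and late minus early differences as it was in both genotypes, and gave 0.06 for WT late minus egg, against 0 without them.

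**Figure D3:**
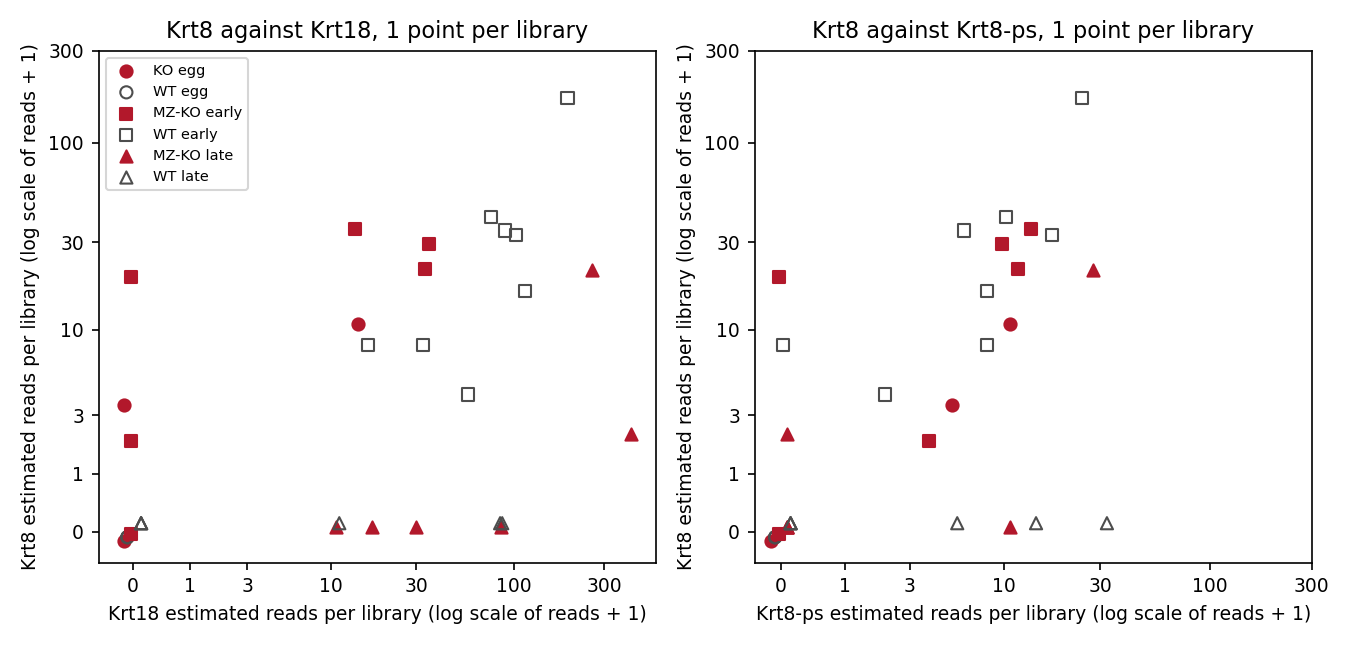
Estimated reads per library of Krt8 against Krt18 (left) and against the pseudogene Krt8-ps (right), on log axes of reads + 1, with a small shift by group so that points at 0 can be told apart; filled red is KO or MZ-KO and open grey is WT. Late embryos labelled MZ-KO lie along the bottom at left, with Krt18 up to 388 reads and Krt8 at 0 in 4 libraries, and 3 WT late embryos lie along the bottom at right.

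Other keratins give the setting of the pair. Of 49 annotated keratin genes (25 of type I, 23 of type II and Krt222), 36 never reached FPKM 1 in any library and 4 of these were at 0 throughout. Those at FPKM 1 in at least 3 libraries numbered 10, and Krt18 but not Krt8 is among them. Krt7 and Krt19, simple-epithelial keratins that appear with Krt8 and Krt18 in many ducts, stayed at or below 0.0800 and 0.291 FPKM. Krt19 is listed at 0 in all eggs of both labels.

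The better-measured keratins took other courses. Krt84, a hair and tongue type II keratin, averaged 19.1 FPKM per exon length in WT eggs, 16.6 in WT early and 6.38 in WT late embryos. Under the KO labels it averaged 17.6 in eggs, 18.1 in early and 2.58 in late embryos. It fell by the late stage in both genotypes, by 2.03 from the early stage in embryos labelled MZ-KO and by 1.23 in WT (log2(FPKM + 1), limma adjusted p = 5.18e-05 and 0.00112). Krt12, the corneal type I keratin, fell by 1.73 in MZ-KO and by 1.45 in WT (limma adjusted p = 8.24e-09 and 1.22e-05), and its span overlaps another gene, A830036E02Rik. Krt88 fell by 1.81 and by 1.83 (limma adjusted p = 5.44e-09 and 6.72e-09). Krt12 and Krt88 reached at most 0.746 and 0.487 FPKM in any late embryo, so both passed these filters through early libraries alone.

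Krt73, a type II keratin of the hair root sheath, rose at the early stage, by 1.09 in MZ-KO early embryos over eggs labelled KO and by 1.15 in WT (limma adjusted p = 0.00803 and 0.0234). The WT call of Krt73 was lost without any one of the 3 WT eggs (differences 1.11 to 1.20, limma adjusted p = 0.0595 to 0.0808) and without a filter (0.0848). Krt72, of the same sheath, was 0.83 higher in MZ-KO early embryos than in eggs labelled KO (limma adjusted p = 0.00962) and 0.66 higher in WT early embryos than in WT eggs, which missed the threshold (limma adjusted p = 0.0533). Krt73 and Krt72 reached at most 0.393 and 0.692 FPKM in any egg, so both passed these filters through early libraries alone. Krt28, a type I keratin of the root sheath, averaged 11.6 FPKM per exon length in late embryos labelled MZ-KO and 6.50 in WT late embryos, and 0.0800 or less in both egg groups. It rose by 1.42 between eggs and late embryos under the KO labels (limma adjusted p = 0.00168). Krt28 reached at most 0.031 FPKM in eggs labelled KO, so it passed that filter through late libraries alone. Krt10, Krt25 and Krt71 were lower per exon length in both late groups than in eggs, and none of them passed the filter of a comparison with late embryos. None of the other keratins tested was called between genotypes by limma, with 0 of 3 in eggs, 0 of 6 in early and 0 of 2 in late embryos, and also 0 at an unadjusted p below 0.05. Over all genes 0.333%, 3.28% and 31.9% were called, in that order of stages.

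**Figure D4:**
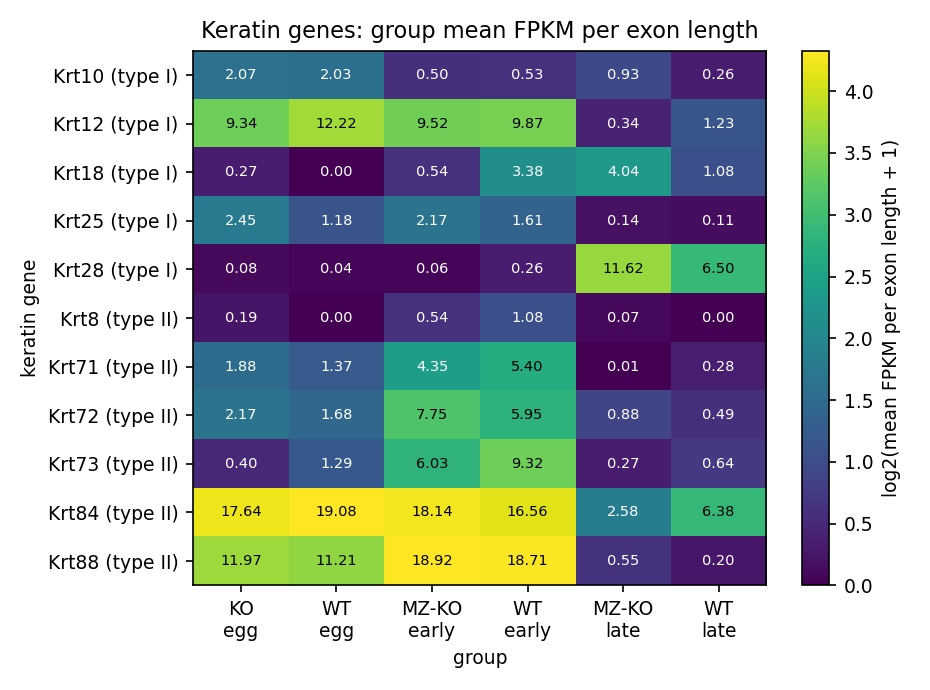
Group means of FPKM per exon length (numbers in the cells; colour is log2 of the mean + 1) for the 10 keratin genes that reached FPKM 1 in 3 or more libraries and for Krt8, with KO or MZ-KO left of WT at each stage. Krt84, Krt88 and Krt12 lead in eggs and early embryos, and Krt28 and Krt18 lead in late embryos labelled MZ-KO (11.62 and 4.04).

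The neighbours on chromosome 15 were low or took another course. Krt4, Krt79 and Krt78, beyond Krt8, averaged 0.338 FPKM or less in every group. Eif4b, a translation initiation factor beyond Krt18, rose between eggs and early embryos by 1.5 under the KO labels and by 1.34 in WT, and fell by the late stage by 0.47 in MZ-KO and by 0.54 in WT (limma adjusted p = 0.000244, 0.000124, 0.0174 and 0.00853). Its genotype difference was 0.02 at the early stage and 0.10 at the late one, and neither passed (limma adjusted p = 0.960 and 0.710). Tns2 stayed at or below 0.316 FPKM, and Spryd3 averaged 0.893 to 1.88 FPKM over the groups.

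Over the 6 group means of log2(FPKM + 1), the genes most like Krt18 among 14153 were Zfp784 (Pearson r 0.967), Ranbp6 (0.957), Qdpr (0.938), Zfp30 (0.932) and Hspa2 (0.930). For Krt8 they were Ccnj (0.996), Cd72 (0.995), Tesk1 (0.992), Zbtb37 (0.991) and Camk2g (0.989). The keratins themselves correlated at 0.462, which put Krt18 at rank 3341 for Krt8 and Krt8 at rank 3632 for Krt18. These are descriptions over 6 points with no test.

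Proteins that bind, stabilise or cut keratins 8 and 18 form a list of 28 genes, of which 19 to 22 passed the filters of the late comparisons. Between early and late embryos 9 rose and 5 fell of 19 under the KO labels, and 11 rose and 5 fell of 21 in WT (limma), with median differences of 0.52 and 0.61 against 0.39 and 0.26 over all genes tested. In these comparisons 81.7% and 85% of all genes were called. Hspb1, a small heat shock protein, was among those that rose in both, at 27 ± 13.8 FPKM in late embryos labelled MZ-KO against 1.21 ± 0.774 in MZ-KO early embryos, and at 23.8 ± 16.8 FPKM in WT late against 1.19 ± 0.612 in WT early embryos (SD, n = 6, 6, 6 and 8). Sfn, the 14-3-3 protein sigma, rose by 3.31 between MZ-KO early and late embryos (limma adjusted p = 9.60e-09).

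At the late stage 3 of 22 members were higher and 4 lower in embryos labelled MZ-KO (limma), with a median difference of 0.06 against 0.07 over all genes. That is 7 of 22, where 31.9% of all genes were called, so the share of the list is that of the background. Sfn had 66.7 ± 26 FPKM in late embryos labelled MZ-KO and 22.7 ± 13.8 in WT late embryos (SD, n = 6 each; difference 1.84, limma adjusted p = 0.0269). Casp6, a caspase that cleaves keratin 18, had 3.38 ± 2.20 and 0.327 ± 0.466 FPKM in the same order (1.60, limma adjusted p = 0.00435). Hspa8, the constitutive heat shock protein of the Hsp70 family, was lower, at 6.43 ± 2.12 FPKM in late embryos labelled MZ-KO and 26.4 ± 6.54 in WT late embryos (−1.90, limma adjusted p = 0.000106), and so was Hspa1b, at 2.66 ± 1.87 and 12.6 ± 10.7 FPKM (−1.75, limma adjusted p = 0.0142). Hspa1b and its near-identical neighbour Hspa1a can share reads, so its value is uncertain. The call of Sfn was lost without late library 3 or 4 labelled MZ-KO (limma adjusted p = 0.0571 and 0.0553), and those of Sfn and Hspa1b without a filter (limma adjusted p = 0.0944 and 0.0564). None of the members tested was called by limma between genotypes in eggs (0 of 15) or early embryos (0 of 17). At an unadjusted p below 0.05 there was 1 in each.

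Transcription factors of trophectoderm and of keratin genes were measured for at most 11 of 26 members. Between early and late embryos 6 rose and 1 fell of 9 under the KO labels, and 6 rose and 1 fell of 7 in WT (limma), with medians of 1.13 and 1.01 against 0.39 and 0.26 over all genes, of which 81.7% and 85% were called. Tfap2c, a trophectoderm factor, had 8.21 ± 2.47 FPKM in late embryos labelled MZ-KO against 3.11 ± 0.488 in MZ-KO early embryos, and 9.32 ± 2.69 in WT late against 1.92 ± 0.604 in WT early embryos (SD, n = 6, 6, 6 and 8; limma adjusted p = 4.81e-05 and 8.38e-08). Klf5 had 3.99 ± 1.51 FPKM in late embryos labelled MZ-KO against 0.113 ± 0.0890 in MZ-KO early ones, and 3.01 ± 2.51 in WT late against 0.192 ± 0.171 in WT early ones (limma adjusted p = 2.52e-08 and 3.66e-05). Grhl1 fell between WT early and late embryos, from 1.43 ± 0.374 to 0.177 ± 0.105 FPKM (limma adjusted p = 9.97e-08). From eggs to late embryos 6 of 10 rose and 2 fell under the KO labels. In WT 8 of 11 rose and 3 fell (limma). Gata3 was among those that fell, from 2.57 ± 0.595 to 0.0832 ± 0.0719 FPKM under the KO labels (limma adjusted p = 3.71e-06). In WT it fell from 2.7 ± 1.47 to 0.0317 ± 0.0472 FPKM (limma adjusted p = 2.59e-05). Klf4 and Jund were called higher in late embryos labelled MZ-KO than in WT late embryos, 2 of 8 tested and none lower, by 0.94 and 1.01 (limma adjusted p = 0.00971 and 0.0262), where 31.9% of all genes were called. The call of Jund was lost without late library 2, 5 or 6 labelled MZ-KO or WT late library 4 (limma adjusted p of at most 0.0585) and without a filter (0.0871). At the early stage 0 of 3 were called by limma. At an unadjusted p below 0.05 there was 1.

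Junction and polarity genes of epithelia numbered 19. In late against early embryos 5 rose and 4 fell of 10 tested under the KO labels, and 3 rose and 5 fell of 8 in WT (limma), with medians of 0.51 and −0.76 against 0.39 and 0.26 over all genes, of which 81.7% and 85% were called. Cldn6, a tight junction protein, rose to 8.34 ± 4.98 FPKM in late embryos labelled MZ-KO, against 0.213 ± 0.256 in MZ-KO early embryos, and to 15.6 ± 7.74 in WT late, against 0.629 ± 0.905 in WT early embryos (SD, n = 6, 6, 6 and 8; limma adjusted p = 7.06e-07 and 1.17e-07). Pard6b, among those that fell in WT, had 0.397 ± 0.363 FPKM in WT late and 3.29 ± 0.979 in WT early embryos (−1.62, limma adjusted p = 3.58e-07). Between genotypes 2 of 8 were called at the late stage, both higher in embryos labelled MZ-KO, against 31.9% of all genes. Krtcap3 had 7.96 ± 4.18 FPKM in late embryos labelled MZ-KO and 1.36 ± 1.18 in WT late embryos, and Cldn7 had 4.10 ± 2.6 and 1.22 ± 1.02 FPKM in that order (SD, n = 6 each; limma adjusted p = 0.00316 and 0.0250). The call of Cldn7 was lost without late library 3 or 4 labelled MZ-KO or WT late library 1 (limma adjusted p = 0.0531 to 0.0543) and without a filter (0.0851). At the early stage 0 of 8 were called by limma. At an unadjusted p below 0.05 there were also 0.

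Filament linkers and desmosomal proteins were almost unmeasured, with at most 3 of 20 members passing a filter. Other intermediate filament genes passed for at most 4 of 16. Ina, a neuronal filament gene, had 2.39 ± 0.691 FPKM in late embryos labelled MZ-KO and 0.792 ± 0.430 in WT late embryos (SD, n = 6 each; 0.93, limma adjusted p = 0.00335), and Lmna, the gene of lamins A and C, rose between early and late embryos in WT by 0.63 (limma adjusted p = 0.00347). Under the KO labels it was 0.43 higher (limma adjusted p = 0.0375), a call lost with median-ratio scaling (0.26, limma adjusted p = 0.185), without a filter (0.0851) and without any one of 7 of the 12 libraries (0.0501 to 0.0963).

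Markers of other cells that surround eggs and embryos were measured beside the pair. Of 14 cumulus and granulosa markers, 14 stayed under FPKM 1 in every egg and early group. In late embryos 13 did, the exception being Amhr2, at 5.79 ± 1.33 FPKM in late embryos labelled MZ-KO and 7.70 ± 2.36 in WT late embryos (SD, n = 6 each). Without Amhr2 the summed level of the list was 0.290 to 1.33 FPKM in late embryos labelled MZ-KO and 0.218 to 0.847 FPKM in WT late embryos, and 0.282 to 1.28 FPKM in MZ-KO early and 0.482 to 0.736 FPKM in WT early embryos. Has2 stayed at or below 0.0760 FPKM and Ptx3 was listed at 0 in all libraries. Of 11 oviduct and ovarian epithelium markers, which include Krt7 and Krt19, Epcam carried most of the late sums, at 13.7 ± 3.34 FPKM in late embryos labelled MZ-KO and 9.63 ± 3.40 FPKM in WT late embryos (SD, n = 6 each), and the others summed to at most 2.63 FPKM in a library. The oviduct glycoprotein gene Ovgp1 had 0 to 0.516 FPKM in late embryos labelled MZ-KO and 0.185 to 1.48 FPKM in WT late embryos. Of the 11 markers, 2 reached FPKM 1 in a late embryo labelled MZ-KO and 4 in a WT late embryo. Pax8 and Foxj1, transcription factors of oviduct epithelium, were at or below 0.0260 and 0.224 FPKM. The part of these markers in the keratin values was not tested.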

How the data were processed

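The authors' deposited table gives FPKM per gene and library, that is, reads per gene length and library depth. Per the submitters' processing notes, TopHat2, DESeq and DESeq2 were used by the authors on mouse build mm 10; versions are not given in the sources used here. Columns are named by group without replicate numbers, so the library numbers used here follow column order and pair nothing. One group name has transposed letters and was read as late KO; its 6 columns average to the authors' own late KO mean column within 3.3e-06. With the genomic span as length, in genes of 300 to 2000 bp, 99.0% or more of a library's low values fell within 0.1 read of a whole number of reads. Depth and reads per gene were estimated from these steps. All 38 Krt8 and Krt18 values above 0 came out as even whole reads. No 2 libraries of a group correlated above 0.975, and none was taken for a duplicate.

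Each comparison was fitted on its own 2 groups in limma 3.58.1 (R 4.3.3, statmod 1.5.0), with an intensity trend and robust moderation, on log2(FPKM + 1). A gene entered when the libraries in which it reached FPKM 1 numbered no fewer than the smaller group's size. Calls were made where the Benjamini-Hochberg adjusted p over all genes tested was below 0.05. The pseudocount of 1 understates changes of low genes. A count test was not used on FPKM. In simulated data for the early genotype comparison (7675 genes, 200 changed), 95 genes changed by 2 and 75 changed by 1 on the log2 scale were recovered, with 7 false calls. Recovery was 85 and 36 for eggs between genotypes, 80 and 39 for WT late minus egg, and 89 and 41 for that step under the KO labels. Changed genes had a reference mean above 2 in log2(FPKM + 1) and normal noise. Recovery at the low levels of Krt8 and Krt18 was therefore not covered. Exact permutation tests for Krt8 and Krt18 were added after seeing that most values failed the filter. Planned tests of Krt18 between stages with early embryos are not reported, since the choice of the gene used those values. Python 3.11.15, scipy 1.17.1 and matplotlib 3.10.9 were used. The annotation was GENCODE release M 21, which held 54495 of the 54532 identifiers. A level of 3 reads was used as the floor of a group at 0. Floors cover counting error only, and amplified reads are not independent molecules. The limma intervals are built from the spread between libraries. The Krt8 and Krt18 values above 0 were all even, so if read pairs were counted as units, 3 reads is too low a floor. The folds over it would then be too high.

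The genes, the lists and the comparisons were chosen with earlier results of these data known. Named genes are the pair, Trp53, keratins at FPKM 1 in at least 3 libraries, the 3 nearest coding genes on either side, called list members among the 4 largest differences of a comparison, and the 5 genes most like each keratin. Krt7, Krt19 and the single marker genes were named as markers. Alternatives were a pseudocount of 0.1, no filter, a filter at FPKM 5, median-ratio scaling, a fit over all groups, and each library left out. The closing part gives their effect.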

Additional observations from a re-analysis of the deposited data

Results flagged for a closer look

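Of 15 groups of 4 to 10 libraries examined for a library far from the others, 2 stood out, and chance alone gives about 1 in 20. That rate need not hold where most values are 0, as for Krt8 in late embryos labelled MZ-KO. Krt8 in WT early library 3 was 1.10 FPKM, where the next highest WT early library had 0.269. The same library had the highest Krt18 of WT early embryos, the highest 2-cell marker sum and the lowest correlation with its group. The part of these in the Krt8 value was not tested. Krt8 in late library 5 labelled MZ-KO was 0.0930 FPKM, where the next highest of that group had 0.012, and this library is also the deepest of the series and holds 26 reads of the pseudogene Krt8-ps. Whether its Krt8 reads come from the pseudogene was not tested.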

How the results depend on the processing

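No paired analysis was possible because the columns of the table carry no replicate number. No called value changed sign under any alternative. Of the alternatives for single named or listed genes, 29 lost a call, and of the fits without 1 library 68 did. A pseudocount of 0.1 enlarged the differences of these low genes without turning a sign. For Krt18 it gave −2.49 at the early and 1.89 at the late stage between MZ-KO and WT, 4.37 for the change between them, 0.68 in eggs, 0.45, 2.15 and 2.6 under the KO labels for early minus egg, late minus early and late minus egg, and 1.39 for WT late minus egg. For Krt8 it gave −0.48, 0.18, 0.66 and 0.48 for the same genotype differences, 0.59, −0.89 and −0.30 under the KO labels, and 1.56 and −1.56 for WT early minus egg and late minus early. The Krt18 difference between late embryos labelled MZ-KO and eggs labelled KO passed the threshold with that pseudocount (limma adjusted p = 0.0329), in a fit over all libraries (0.956, limma adjusted p = 0.0185) and without late library 2 labelled MZ-KO (1.14, limma adjusted p = 0.0423). Leaving out single libraries gave 0.892 to 1.14. The late values took part in the choice of Krt18, so these passes do not count as support for a rise. Late minus early under the KO labels, which is described only, was 0.846 in the fit over all libraries, where the gene met the filter. With Krt8-ps reads added, the Krt8 difference was 0.13 in eggs and 0.06 for WT late minus egg, against 0.07 and 0. Causes were not tested.

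Counts of genes called moved over 1.5 times in several settings, where a filter changes how many genes enter. Without a filter they were 14095 for late minus early under the KO labels (7303 with it), 15824 in WT (7923), 56 between early genotypes (252) and 6 between eggs (22). At FPKM 5 they were 3306, 1968 and 4079 for late minus early, early minus egg and late minus egg under the KO labels, 3554, 2011 and 4093 in WT, 1502 between late genotypes and 14 between eggs. The pseudocount of 0.1 gave 8 in eggs, and the fit over all libraries 4935 between late genotypes (2802). Without single libraries the count was 6 to 38 in eggs and 105 to 351 between early genotypes, with over 1.5 times fewer without MZ-KO early library 2, 3, 5 or 6. Median-ratio scaling gave a median of all genes of 0.109, against 0.393 as deposited, for late minus early under the KO labels, where Krt18 was 0.737. For late minus egg it gave 0.406, against 0.771. Between late genotypes Krt18 was 0.604 with that scaling. Krt8 rests on 458 reads in all, so its differences within late embryos and eggs were near what the depth can show.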
